A study of Homo sapiens with 2 samples.

Results

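Platelet-derived growth factors (PDGFs) and vascular endothelial growth factors (VEGFs) were examined as a group of 10 genes in RNA-Seq data of 2 human prostate cancer (PCa) cell lines. The genes were taken by name from the deposited table of TPM values, a measure of transcript abundance. They comprise the 4 PDGF ligand genes PDGFA, PDGFB, PDGFC and PDGFD, the PDGF receptor genes PDGFRA and PDGFRB, the VEGF ligand genes VEGFA and VEGFC, and the neuropilin genes NRP1 and NRP2. Each of the 10 had 1 row among the 21382 genes of the table. The study asked which ligands and receptors could connect PCa cells with platelets, which store and release PDGF and VEGF proteins.

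One library was sequenced from untreated MDA PCa 2b cells, a line that grew out of a bone metastasis, and one from untreated RC77 T/E cells, a line of prostate tumour epithelium immortalized with papillomavirus oncogenes. The MDA PCa 2b cells grew in a modified F-12 medium with fetal bovine serum, cholera toxin, mouse epidermal growth factor, phosphoethanolamine, hydrocortisone, selenite and insulin. The RC77 T/E cells grew in serum-free keratinocyte medium to which bovine pituitary extract and epidermal growth factor were added, so cell line and medium cannot be told apart. With 1 library per cell line no value had a replicate error, no difference had a replicate check and no test was made. TPM scales the reads of a gene by its length and by the library total and keeps no record of depth, so depth and counting error are unknown. Fewer cells that express a gene and less RNA of that gene per cell cannot be told apart in such bulk libraries.

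PDGF ligands are disulfide-linked dimers of A, B, C or D chains that bind the receptor tyrosine kinases PDGFRα and PDGFRβ, which are best known from fibroblasts, pericytes and smooth muscle. VEGF-A acts mainly through VEGFR-1 and VEGFR-2 on blood vessel endothelium, and VEGF-C mainly through VEGFR-3 on lymphatic endothelium. Neuropilins are co-receptors without a kinase of their own that bind both VEGFs and class 3 semaphorins, and tumour epithelium is known to carry them. PDGF-C, PDGF-D and VEGF-C are made as precursors that proteases must cut before the receptors are fully activated.

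Upstream sequences are shown for genes on which the comparison turned. VEGFC, NRP2 and PDGFA were higher in RC77 T/E cells, while PDGFRB was near 0 in both cell lines. The sequences are those of RefSeq on GRCh38.p14, printed 5′ to 3′ on the strand of the gene, and capitals mark GC boxes, the letters GGGCGG on either strand, a motif bound by Sp1-family factors. Bases inside annotated exons were left out. VEGFC lies on the minus strand and its bases are chr4:176792923-176793172. NRP2 lies on the plus strand, at chr2:205682251-205682499. PDGFA lies on the minus strand and has 4 RefSeq starts, of which one is shown by the bases chr7:519847-519959. PDGFRB lies on the minus strand, at chr5:150155873-150156095.
VEGFC: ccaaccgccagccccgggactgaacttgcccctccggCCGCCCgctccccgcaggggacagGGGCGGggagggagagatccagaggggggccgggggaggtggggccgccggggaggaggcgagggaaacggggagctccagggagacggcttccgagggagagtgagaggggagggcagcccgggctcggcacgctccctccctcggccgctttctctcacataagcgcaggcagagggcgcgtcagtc
NRP2: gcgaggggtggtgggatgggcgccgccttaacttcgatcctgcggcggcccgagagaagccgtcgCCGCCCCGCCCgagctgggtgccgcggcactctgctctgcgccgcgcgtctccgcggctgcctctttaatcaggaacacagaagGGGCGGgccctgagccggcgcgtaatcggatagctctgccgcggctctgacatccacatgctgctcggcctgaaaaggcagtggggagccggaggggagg
PDGFA: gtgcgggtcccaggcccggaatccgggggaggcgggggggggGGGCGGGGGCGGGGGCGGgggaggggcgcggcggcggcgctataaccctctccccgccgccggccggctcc
PDGFRB: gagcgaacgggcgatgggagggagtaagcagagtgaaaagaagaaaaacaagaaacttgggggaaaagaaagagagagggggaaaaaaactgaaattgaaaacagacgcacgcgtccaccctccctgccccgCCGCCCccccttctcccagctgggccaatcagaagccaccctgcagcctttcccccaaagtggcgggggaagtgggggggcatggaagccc

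The stretch of VEGFC held 2 GC boxes, that of NRP2 held 3, that of PDGFA held 3 in a row and that of PDGFRB held 1, with overlapping boxes counted separately. For PDGFRA, also near 0 in both cell lines and not shown, a window held 2 and another held 0. RefSeq windows were at hand for 6 of the 10 genes, which had 10 starts, and 250 bases before each start were searched on both strands. PDGFB, PDGFC, VEGFA and NRP1 had no window and were not searched. A GC box was found in 9 of the 10 windows, against 42.6% of all 35116 RefSeq windows of that length. Several of the 10 windows belong to the same gene, PDGFA or PDGFRA. The median share of G and C bases over all windows was 58%. Each of the 10 was above it except a PDGFRA window at 46.8%. The part of base composition in the share with a GC box was not tested. The hypoxia-response core, ACGTG or GCGTG, was found in 5 of the 10 windows, against 43.2% of all windows. No window held the AP-1 site TGACTCA or the TATA box letters TATAAA, which 4.2% and 10.7% of all windows held. No GC box in these windows shared letters with another of the motifs.

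Most values of 1 TPM or more had lost their decimal mark in the deposited table, and the mark was restored from the deposited mean and standard error. Where these fit several positions, all possible levels are given for the 10 genes. The positions differ by powers of 10 for both cell lines at once, so the ratio between the cell lines is the same at each of them. Ratios on the log2 scale were taken with RC77 T/E in the numerator after adding 1 TPM to both values, at the lowest position, and past 2-fold means a value of at least 1 in either direction. Such values understate the difference of genes that are low in one cell line. Over the 11624 genes with a mean of 1 TPM or more the median of this log2 ratio was -0.15.

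Of the 10 genes, 4 reached 1 TPM in MDA PCa 2b cells and 7 in RC77 T/E cells. Of all 21382 genes, 10607 and 11286 did, in the same order. PDGFA, PDGFB, VEGFA and NRP1 reached 1 TPM in both cell lines, as did 45.7% of all genes. PDGFC, VEGFC and NRP2 reached it in RC77 T/E cells while lying under 0.1 TPM in MDA PCa 2b cells, a pattern of 3.67% of all genes. The reverse pattern was seen in 1.67% of all genes and in 0 of the 10. PDGFD, PDGFRA and PDGFRB lay under 0.1 TPM in both cell lines, as did 32.9% of all genes.

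**Figure D1:**
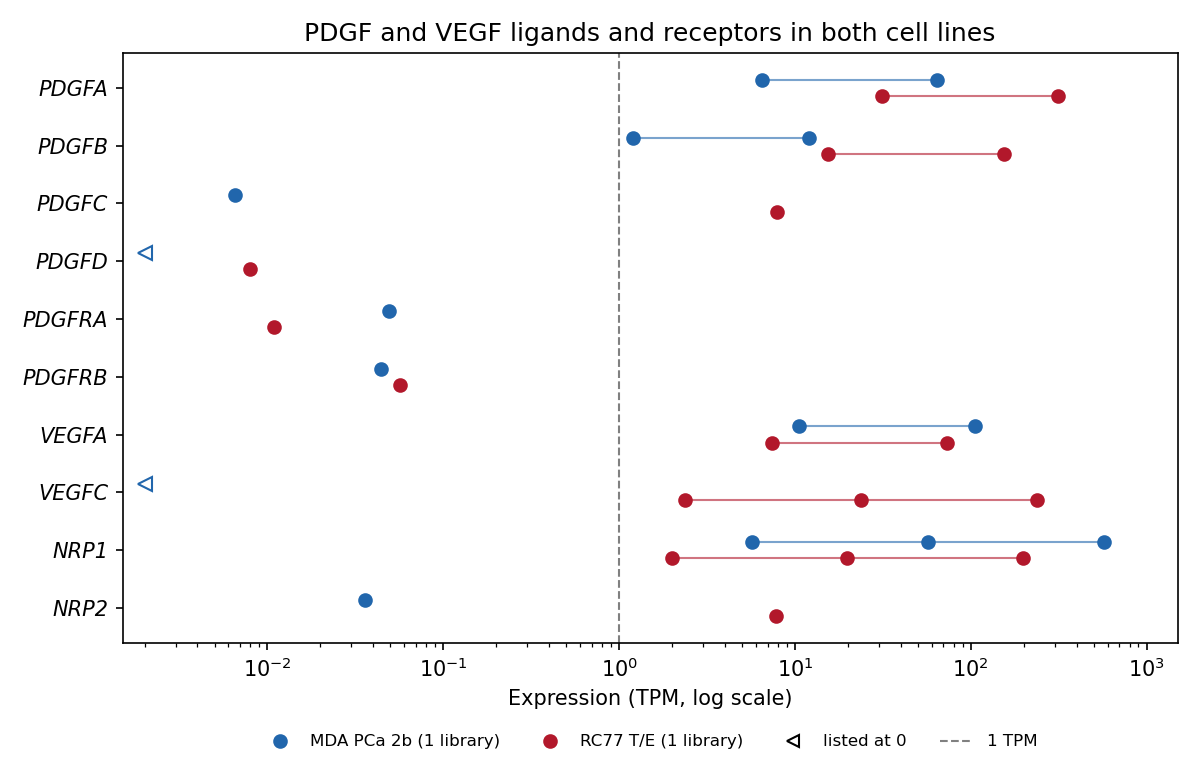
Expression of the 10 genes in TPM (x axis, log scale) in MDA PCa 2b cells (blue) and RC77 T/E cells (red), 1 library each. Points joined by a line are the levels that the lost decimal mark allows, and open triangles are values listed at 0. PDGFC, VEGFC and NRP2 lie right of the dashed line at 1 TPM only in RC77 T/E cells.

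All but PDGFD, PDGFRA and PDGFRB, or 7 genes, had a mean of 1 TPM or more. PDGFA, PDGFB, PDGFC, VEGFC and NRP2 were past 2-fold higher in RC77 T/E cells, where 19.4% of all genes with such a mean were, and NRP1 was past 2-fold higher in MDA PCa 2b cells, where 20.0% were. PDGFC, VEGFC and NRP2 passed the filter on the mean through RC77 T/E cells alone and could therefore only be higher there. Of the 4 genes that reached 1 TPM in both cell lines, PDGFA and PDGFB were higher in RC77 T/E cells, NRP1 was higher in MDA PCa 2b cells, and VEGFA stayed within 2-fold. Centring the log2 ratios on their median left the same 5 genes and the same 1 gene past 2-fold.

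Among the PDGF ligands, PDGFA encodes the A chain, which binds PDGFRα. It measured 6.47 TPM in MDA PCa 2b cells against 31.4 TPM in RC77 T/E cells, or 64.7 and 314 TPM. RC77 T/E cells thus had 4.85 times the level of MDA PCa 2b cells, a log2 ratio of 2.12. PDGFA was the highest of the 10 genes in RC77 T/E cells with all marks at the lowest position and with all at the highest. The position is open for each gene separately, however. The order of PDGFA against PDGFB, VEGFA, VEGFC and NRP1 was therefore not fixed. The gene (ENSG00000197461) occupies bases 497258 to 520296 of chromosome 7 on GRCh38.

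PDGFB encodes the B chain, which binds both PDGF receptors and is abundant in platelets. Its level was 1.204 TPM in MDA PCa 2b cells against 15.5 TPM in RC77 T/E cells, or 12.04 and 155 TPM. The level in RC77 T/E cells was 12.9 times that in MDA PCa 2b cells, with a log2 ratio of 2.91. PDGFB (ENSG00000100311) lies on chromosome 22 from 39223359 to 39244982.

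PDGFC encodes a chain with a CUB domain that keeps the factor latent until it is cleaved. The gene measured 0.00655 TPM in MDA PCa 2b cells against 7.87 TPM in RC77 T/E cells, and here the decimal mark had a single position. Its log2 ratio was 3.14, the largest of the 10 genes at the lowest positions, but at the highest positions VEGFC with 7.89 and PDGFB with 3.58 were above it. A plain quotient of the levels was 1203, but it rests on a denominator near 0 and moves with any small change of it. PDGFC (ENSG00000145431) lies on chromosome 4 from 156760454 to 156971799.

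PDGFD encodes the other CUB-domain ligand, which binds mainly PDGFRβ. It was listed at 0 in MDA PCa 2b cells and at 0.00795 TPM in RC77 T/E cells, so both cell lines were far under 1 TPM. PDGFD (ENSG00000170962) lies on chromosome 11 from 103907189 to 104164379.

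Within RC77 T/E cells, PDGFA was at least 3.98 times PDGFC and PDGFB at least 1.97 times PDGFC, whichever position of the decimal mark holds. These are comparisons of TPM levels, which are per length of transcript.

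Neither PDGF receptor reached 0.1 TPM. PDGFRA, the receptor of the A, B and C chains, measured 0.0491 TPM in MDA PCa 2b cells against 0.0109 TPM in RC77 T/E cells. Its log2 ratio was -0.05, and it turned to 0.10 when ratios were centred on their median, so no direction is given. PDGFRA (ENSG00000134853) lies on chromosome 4 from 54229280 to 54298245. PDGFRB, the receptor of the B and D chains, measured 0.0443 TPM in MDA PCa 2b cells against 0.0567 TPM in RC77 T/E cells. Its log2 ratio was 0.02, and the gene (ENSG00000113721) lies on chromosome 5 from 150113839 to 150155872.

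In both cell lines PDGFA and PDGFB reached 1 TPM while both receptor genes stayed under 0.1 TPM. No quotient is given, since the depth is unknown and a level of a few hundredths of a TPM cannot be compared with a detection limit.

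VEGFA encodes the main angiogenic VEGF and is a classic target of hypoxia-inducible factors. It measured 10.6 TPM in MDA PCa 2b cells against 7.37 TPM in RC77 T/E cells, or 106 and 73.7 TPM. The level in MDA PCa 2b cells was 1.44 times that in RC77 T/E cells, a log2 ratio of -0.47, which is within 2-fold. It was the highest of the 10 genes in MDA PCa 2b cells at the lowest positions, where at the highest positions NRP1 was. VEGFA (ENSG00000112715) lies on chromosome 6 from 43770184 to 43786487.

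VEGFC encodes the lymphangiogenic VEGF. It was listed at 0 in MDA PCa 2b cells and measured 2.37, 23.7 or 237 TPM in RC77 T/E cells, so no fold is given. Each of these levels in RC77 T/E cells is above 1 TPM. With 1 TPM added to both values the log2 ratio was 1.75 at the lowest position and 7.89 at the highest. VEGFC (ENSG00000150630) lies on chromosome 4 from 176683538 to 176792922.

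The neuropilins differed between the cell lines in opposite directions. NRP1, which pairs with VEGFR-2 and binds semaphorin 3A, measured 5.73 TPM in MDA PCa 2b cells against 1.99 TPM in RC77 T/E cells, or 57.3 and 19.9 TPM, or 573 and 199 TPM. MDA PCa 2b cells had 2.88 times the level of RC77 T/E cells, with a log2 ratio of -1.17. This was just past 2-fold, and it was -1.02 when centred on the median and -1.03 after scaling both libraries to the same upper quartile. NRP1 (ENSG00000099250) lies on chromosome 10 from 33177492 to 33336262.

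NRP2 encodes the neuropilin that pairs with VEGFR-3 and binds VEGF-C and semaphorin 3F. It measured 0.0360 TPM in MDA PCa 2b cells against 7.77 TPM in RC77 T/E cells, with a single position of the decimal mark. The log2 ratio was 3.08, and the plain quotient of 216 again rests on a denominator near 0. NRP2 (ENSG00000118257) lies on chromosome 2 from 205681990 to 205798133. VEGFC and NRP2 were thus both above 1 TPM in RC77 T/E cells and both under 0.1 TPM in MDA PCa 2b cells.

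Levels could be ordered only in part because of the lost decimal mark. Of the 45 pairs among the 10 genes, 38 had the same order at every position in MDA PCa 2b cells and 29 in RC77 T/E cells. PDGFC and NRP2 lay side by side in RC77 T/E cells, with PDGFC at 1.01 times the level of NRP2. Without replicates it cannot be said whether such neighbours differ.

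**Figure D2:**
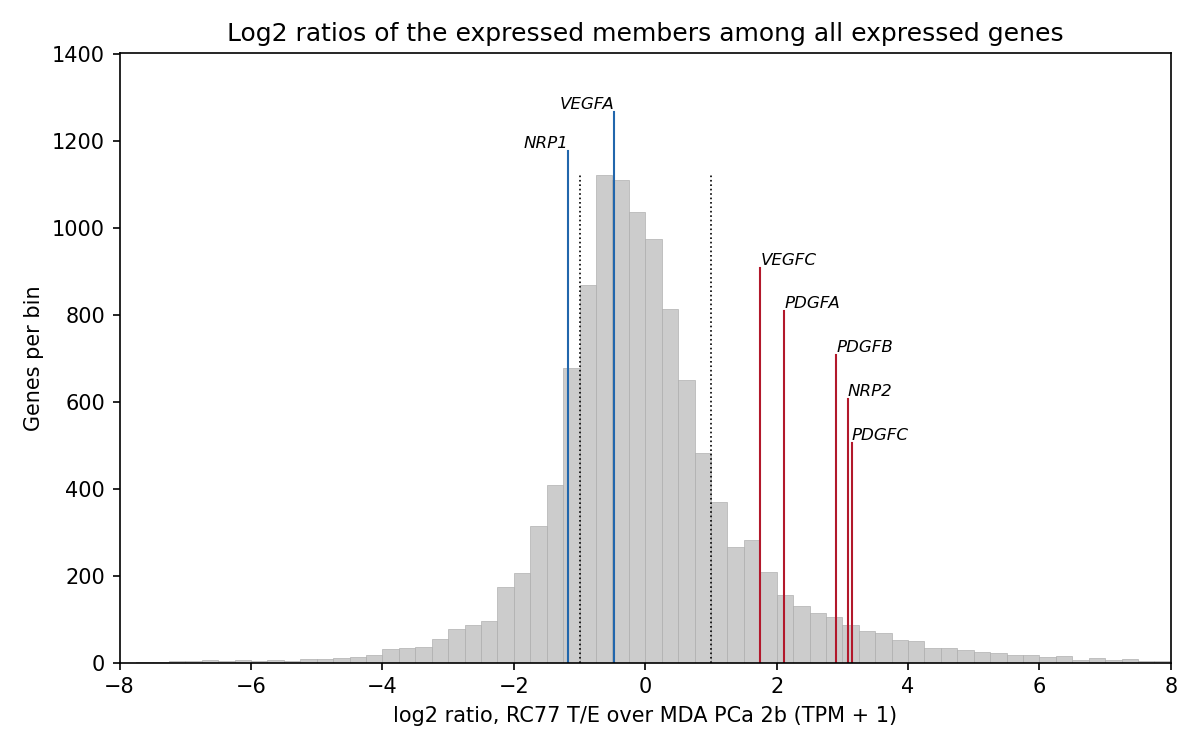
Histogram of the log2 ratio of RC77 T/E over MDA PCa 2b (x axis, 1 TPM added to both values) for genes with a mean of 1 TPM or more (y axis, genes per bin of 0.25), leaving out 87 genes beyond 8 in either direction. Vertical lines mark 7 of the PDGF and VEGF genes (their heights carry no value) and dotted lines mark 2-fold. VEGFC, PDGFA, PDGFB, NRP2 and PDGFC lie right of the upper dotted line and NRP1 lies just left of the lower one.

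The plain quotients were also placed among the 11285 genes with a mean of 1 TPM or more that were above 0 in both cell lines, as a description of these libraries. A larger quotient of RC77 T/E over MDA PCa 2b was seen in 0.886% of these genes for PDGFC, in 2.74% for NRP2, in 7.61% for PDGFB and in 11.1% for PDGFA. VEGFA lay in the middle of the range, with 61.6% of genes above it. For NRP1, 13.3% of genes had a smaller quotient.

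Of the other VEGF genes, 5 of 6 had a row and 2 had a mean of 1 TPM or more. VEGFB, a ligand of VEGFR-1, measured 13.8 TPM in MDA PCa 2b cells against 11.5 TPM in RC77 T/E cells, or 138 and 115 TPM, and stayed within 2-fold. PGF, placental growth factor, measured 0.0495 TPM in MDA PCa 2b cells against 3.26 TPM in RC77 T/E cells and was past 2-fold higher there, having passed the filter on the mean through RC77 T/E cells alone. The VEGF receptor genes FLT1, KDR and FLT4 were all under 0.1 TPM in both cell lines, the highest value being 0.0553 TPM for KDR in RC77 T/E cells. The receptor tyrosine kinase genes PDGFRA, PDGFRB, FLT1, KDR and FLT4 were thus all under 0.1 TPM in both cell lines.

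Of 12 class 3 semaphorin genes and genes of plexins that signal with neuropilins, 11 had a row and 8 a mean of 1 TPM or more. Past 2-fold, 6 of these 8 were higher in RC77 T/E cells and 1 in MDA PCa 2b cells, against 19.4% and 20.0% of all genes with such a mean, and the median log2 ratio was 1.72 against -0.15 for all genes. SEMA3A and PLXND1 passed the filter on the mean through RC77 T/E cells alone and SEMA3G through MDA PCa 2b cells alone, which fixed their direction. SEMA3A, a ligand of neuropilin-1, was listed at 0 in MDA PCa 2b cells and measured 14.2 or 142 TPM in RC77 T/E cells. SEMA3F, a ligand of neuropilin-2, was 3.95 times higher in RC77 T/E cells, and SEMA3C, which binds both neuropilins, was 2.86 times higher. The plexin genes PLXNA1 and PLXNA2 were 7.10 and 7.71 times higher there, and PLXND1 measured 0.0252 TPM in MDA PCa 2b cells against 2.76 TPM in RC77 T/E cells. SEMA3G went the other way, with 7.87 TPM in MDA PCa 2b cells against 0.00991 TPM in RC77 T/E cells, while PLXNA3 measured 10.5 TPM in both.

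Proteases and cofactors that process the precursors were split. Of 10 genes, 9 had a row and 8 a mean of 1 TPM or more. Past 2-fold, 3 were higher in RC77 T/E cells and 3 in MDA PCa 2b cells, beside the shares of 19.4% and 20.0% over all genes, with a median log2 ratio of -0.51. PLAT, PLAU and CCBE1 passed the filter through RC77 T/E cells alone and KLK3 and PCSK5 through MDA PCa 2b cells alone, so their direction was fixed. PLAT, the tissue plasminogen activator that activates PDGF-C, measured 0.0764 TPM in MDA PCa 2b cells against 32.2 TPM in RC77 T/E cells. PLAU, the urokinase that activates PDGF-D, measured 0.373 TPM and 236 TPM in the same order. CCBE1, a cofactor of VEGF-C cleavage, measured 0.00462 TPM in MDA PCa 2b cells against 19.9 TPM in RC77 T/E cells, while ADAMTS3, the protease it assists, reached only 0.0139 and 0.324 TPM.

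Other proteases of that list were higher in MDA PCa 2b cells. FURIN, a convertase that cleaves PDGF and VEGF-C precursors, was 2.62 times higher there, and PCSK5, a related convertase, measured 3.70 TPM there and 0.246 TPM in RC77 T/E cells. KLK3, the gene of prostate-specific antigen, which can cleave VEGF-C, measured 5323 TPM in MDA PCa 2b cells and was listed at 0 in RC77 T/E cells. PCSK7 and ST14, the gene of matriptase, stayed within 2-fold.

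The genes that sense oxygen upstream of VEGFA were split between the cell lines. All 8 had a mean of 1 TPM or more, with 1 past 2-fold higher in RC77 T/E cells, 3 in MDA PCa 2b cells (19.4% and 20.0% of all genes) and a median log2 ratio of -0.56. EGLN3 passed the filter through MDA PCa 2b cells alone. HIF1A, the hypoxia-inducible subunit, measured 110 TPM in MDA PCa 2b cells against 108 TPM in RC77 T/E cells. EPAS1, which encodes HIF-2α, was 14.1 times higher in RC77 T/E cells. The prolyl hydroxylase genes EGLN1, EGLN2 and EGLN3 were 2.28, 2.999 and 4.60 times higher in MDA PCa 2b cells, although EGLN1 came within 2-fold, at -0.87, when centred on the median.

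Other targets of hypoxia-inducible factors showed no common direction. All 12 had a mean of 1 TPM or more, 4 were past 2-fold higher in RC77 T/E cells, 3 in MDA PCa 2b cells (19.4% and 20.0% of all genes) and 5 stayed within 2-fold, with a median log2 ratio of 0.31. CA9 passed the filter through RC77 T/E cells alone. CA9, a carbonic anhydrase, measured 0.3795 TPM in MDA PCa 2b cells against 15.7 TPM in RC77 T/E cells. SLC2A1, the glucose transporter GLUT-1, was 4.39 times higher in RC77 T/E cells, ADM, the peptide adrenomedullin, 12.1 times and ANGPTL4, a secreted lipase inhibitor, 18.2 times. BNIP3, ANKRD37 and PDK1 were 4.20, 4.13 and 3.09 times higher in MDA PCa 2b cells. LDHA, lactate dehydrogenase, measured 537 TPM in MDA PCa 2b cells against 539 TPM in RC77 T/E cells.

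Adaptors and enzymes that bind the activated receptors were measured at higher levels than the receptor kinase genes PDGFRA, PDGFRB, FLT1, KDR and FLT4. Of 13 genes, 12 reached 1 TPM in MDA PCa 2b cells and 13 in RC77 T/E cells, beside 10607 and 11286 of all 21382 genes. All 13 had a mean of 1 TPM or more, with 4 past 2-fold higher in RC77 T/E cells, 0 in MDA PCa 2b cells (19.4% and 20.0% of all genes) and 9 within 2-fold, and a median log2 ratio of 0.15. GAB1 passed the filter through RC77 T/E cells alone. The adaptor gene SHC1 was 9.43 times higher in RC77 T/E cells, GAB1 3.79 times, the phospholipase gene PLCG1 2.83 times and PIK3CA, a catalytic subunit of PI3-kinase, 2.67 times. CBL, a ubiquitin ligase of such receptors, had a log2 ratio of 0.95 and passed 2-fold when centred on the median, at 1.10. GIPC1, which binds the tail of neuropilin-1, measured 71.1 TPM in MDA PCa 2b cells against 73.8 TPM in RC77 T/E cells. These proteins serve many receptors besides those of PDGF and VEGF.

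Of 6 genes of secreted proteins that bind or oppose the ligands, 5 had a row and 4 a mean of 1 TPM or more. All 4 were past 2-fold higher in RC77 T/E cells, where 19.4% of all genes were, with a median log2 ratio of 3.80. SPARC passed the filter through RC77 T/E cells alone. SPARC, which binds PDGF, measured 0.504 TPM in MDA PCa 2b cells against 107 TPM in RC77 T/E cells. THBS1, thrombospondin-1, was 11.1 times higher and HSPG2, the heparan sulfate proteoglycan perlecan, 37.1 times higher. The remaining gene was SEMA3F, counted among the semaphorins as well. PDGFRL, a receptor-like gene, measured 0.420 TPM in MDA PCa 2b cells against 1.13 TPM in RC77 T/E cells.

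**Figure D3:**
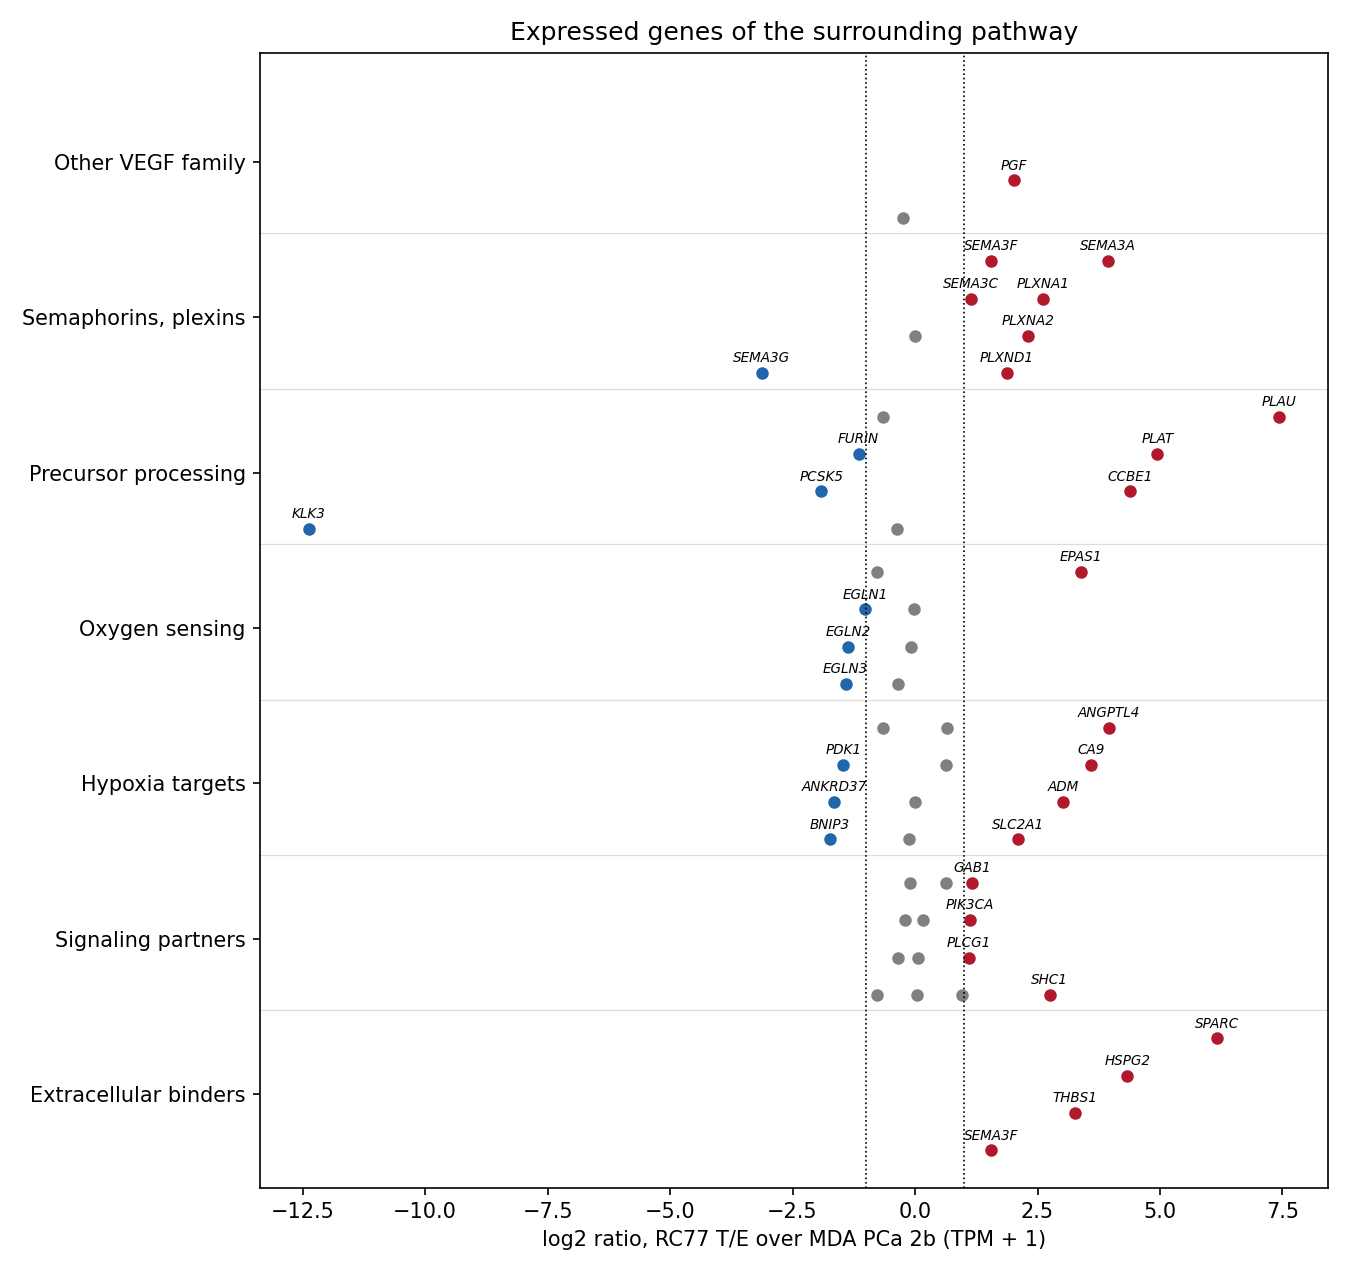
Log2 ratio of RC77 T/E over MDA PCa 2b (x axis, 1 TPM added to both values) for the genes with a mean of 1 TPM or more in 7 lists of pathway genes (y axis; height within a list carries no value). Red points are past 2-fold higher in RC77 T/E cells and blue points in MDA PCa 2b cells, grey points are within 2-fold and dotted lines mark 2-fold. KLK3 has a value of 0 in RC77 T/E cells and SEMA3A a value of 0 in MDA PCa 2b cells, so their places depend on the added 1 TPM.

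Markers of cell types that make or answer these factors were examined next. All 9 endothelial markers were under 1 TPM in both cell lines, with a sum of 0.871 TPM in MDA PCa 2b cells against 1.02 TPM in RC77 T/E cells, and TIE1 was listed at 0 in both. Of 6 platelet markers, GP1BB alone reached 1 TPM, at 4.93 TPM in MDA PCa 2b cells against 2.22 TPM in RC77 T/E cells, or 49.3 and 22.2 TPM. PF4 and GP9, which are abundant in platelets, were listed at 0 in both. The platelet markers summed to 5.22 TPM in MDA PCa 2b cells against 3.29 TPM in RC77 T/E cells at the lowest positions, and to 49.6 and 23.3 TPM at the highest.

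Of 9 fibroblast and pericyte markers, 1 reached 1 TPM in MDA PCa 2b cells and 4 in RC77 T/E cells. Of all 21382 genes, 10607 and 11286 did, in the same order. The markers summed to 4.17 TPM in MDA PCa 2b cells against 23.4 TPM in RC77 T/E cells, the direction of PDGFA, PDGFB and PDGFC. Their part in those differences was not tested. CSPG4, the NG2 proteoglycan, accounted for 9.44 TPM and COL1A1, a collagen chain, for 8.24 TPM of the sum in RC77 T/E cells. ACTA2 and RGS5 also reached 1 TPM in RC77 T/E cells, at 2.92 and 1.247 TPM, against 1.266 and 0.556 TPM in MDA PCa 2b cells. The fibroblast genes DCN and LUM went the other way, with 0.491 and 0.565 TPM in MDA PCa 2b cells. In RC77 T/E cells DCN was at 0.0531 TPM and LUM was listed at 0. PDGFRB, also a marker of that list, was near 0 in both cell lines as given above.

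The labelled cell type was checked against epithelial markers. EPCAM and CDH1 were above 1 TPM in both cell lines. Of 8 prostate luminal markers, 6 were past 2-fold higher in MDA PCa 2b cells and 0 in RC77 T/E cells. In RC77 T/E cells KLK3, KLK2 and HOXB13 were listed at 0. The luminal keratin genes KRT8 and KRT18 stayed within 2-fold, with KRT8 at 39.1 and 31.8 TPM, or 391 and 318 TPM, and KRT18 at 320 TPM in MDA PCa 2b cells against 325 TPM in RC77 T/E cells. Of 6 basal markers, 5 were past 2-fold higher in RC77 T/E cells, among them KRT5 at 0.00435 TPM in MDA PCa 2b cells against 4027 TPM in RC77 T/E cells. All 68 ribosomal protein genes of a set narrowed after their values were seen were above 0 in both cell lines. The luminal and basal markers past 2-fold differed between the same pair of libraries as the genes above, and their part in those differences was not tested.

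Some of the 10 genes share bases with other annotated genes. PDGFB, VEGFA, VEGFC, NRP1 and NRP2 each have an antisense gene in GENCODE release 29 that overlaps their exons on the opposite strand. The libraries kept the strand of the RNA, but whether the deposited values used it is not given in the sources used here, so reads of these pairs may not have been told apart. PDGFRA shares exons with AC058822.1 on its own strand, and the split of reads between them is uncertain. The deposited start and end of PDGFA, VEGFA, NRP1 and NRP2 were those of that release, and the widest gap for the others was 405 bases, at the end of PDGFC.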

How the data were processed

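RNA-Seq of total RNA from both cell lines was analysed from 1 deposited table. Per the submitters' processing notes the tools were CASAVA, FastQC 0.11.9, Trimmomatic 0.38 and Salmon 1.2.0 on GRCh38. The row identifiers have the form that Cufflinks gives. The authors deposited 1 TPM value per locus and cell line, normalized by them for transcript length and library total, with the mean and standard error of both. Read counts were not used here, so depth and precision are unknown.

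Values from 1 TPM upward with at least 3 decimals had lost the decimal mark. The design had assumed plain TPM values. All positions with 1 to 3 leading digits and no fewer than 3 decimals were tried, and pairs that matched the deposited mean and standard error were kept. Of 22704 loci (22791 rows, 87 of which repeat a locus), 16212 had 1 position and 6492 several. For several positions with both values above 0, the ratio was the same at all positions in 6217 of 6220 loci. Sums and ratios took the lowest position. The step was tested on 2000 simulated rows, whose positions included the true pair in 2000. Loci of one symbol were summed.

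A gene was called expressed at 1 TPM, and genes with a mean of 1 TPM or more entered the ratio. Ribosomal protein genes were taken without L and Y paralogs, a choice made after their values were seen. The members and lists were chosen with earlier results of these data known. All 10 genes are named whatever their values. In each list, members past 2-fold or at 1 TPM or more in both lines may be named. Members outside that rule were named after their values were seen, as were antisense partners. The members so named were FLT1, KDR, FLT4, ADAMTS3, PDGFRL and the markers TIE1, PF4, GP9, DCN, LUM and RGS5. Alternatives were another threshold, pseudocount, scaling, locus rule, filter and position of the mark. VEGFD, SEMA3B, PCSK6 and CCN2 were not analysed here, and 2 markers that enter the counts of their lists are not reported here by value. Computation used Python 3.11.15, numpy 2.4.6 and, for plots, matplotlib 3.10.9.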

Additional observations from a re-analysis of the deposited data

How the results depend on the processing

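The counts of the 10 genes past 2-fold, 5 higher in RC77 T/E cells and 1 in MDA PCa 2b cells, were the same with a pseudocount of 0.1 TPM, with ratios centred on the median, with upper quartile scaling, at the highest positions of the decimal mark and without the filter on low values. At thresholds of 0.5 and 5 TPM, 3 to 4 genes were expressed in MDA PCa 2b cells and 5 to 7 in RC77 T/E cells. Counts over all expressed genes ran from 2250 to 2542 higher in RC77 T/E cells and from 1880 to 2728 higher in MDA PCa 2b cells. Single log2 ratios moved more: with a pseudocount of 0.1 TPM, 6 of 10 moved by more than 1.5 times, to 6.23 for PDGFC, 5.85 for NRP2 and 4.63 for VEGFC. At the highest positions only VEGFC did. Of 26 counts for the lists, 1 moved by more than 1.5 times under each of these 2 settings, when GP1BB passed 2-fold. Signaling partners higher in RC77 T/E cells went from 4 to 5 under both, and fibroblast and pericyte markers from 2 to 3 with the pseudocount of 0.1 TPM. No paired analysis was possible because there was 1 library of either line. Depth is unknown, so the low levels carry no counting error.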

Other observations

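The nearest protein-coding genes with a row on both sides of the members did not share one direction. Distances are between gene ends, and levels are at the lowest position of the decimal mark. Beside NRP2, PARD3B at 61.8 kb measured 2.49 TPM in MDA PCa 2b cells against 0.162 TPM in RC77 T/E cells, and INO80D at 195.6 kb measured 1.47 and 2.52 TPM. Next to PDGFC, CTSO at 806.5 kb measured 4.796 TPM in MDA PCa 2b cells against 3.28 TPM in RC77 T/E cells, and GLRB at 104.7 kb was listed at 0 and at 0.903 TPM. On either side of VEGFC, SPCS3 and NEIL3 were 1.58 and 2.59 times higher in RC77 T/E cells. Flanking PDGFB, CBX7 and RPL3 had 0.365 and 0.442 times the MDA PCa 2b level in RC77 T/E cells, where PDGFB itself was higher.

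ITGB1, which encodes the β1 integrin chain and lies 171.7 kb from NRP1, was 8.42 times higher in RC77 T/E cells, where NRP1 was lower. Of the genes beside the PDGF receptor genes, CSF1R at 0.5 kb from PDGFRB measured 0.0314 TPM in MDA PCa 2b cells against 0.353 TPM in RC77 T/E cells, and KIT at 359.7 kb from PDGFRA measured 0.00322 TPM and was listed at 0. Both encode receptor tyrosine kinases of the PDGF receptor family, and neither reached 1 TPM.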
